A study of Saccharomyces cerevisiae and Saccharomyces mikatae and Saccharomyces paradoxus with 13 samples.

Results

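Ty elements are the LTR retrotransposons of budding yeasts, and 10 Ty ORFs of the 6132 ORF rows in the deposited array table are described here. They are 3 ORFs of Ty3 (YIL080W, YIL082W and YIL082W-A), 3 ORFs of Ty5 or beside it (YCL074W, YCL075W and YCL076W) and 4 ORFs of Ty1 or Ty2 (YAR009C, YAR010C, YCL019W and YMR045C). They were picked by ORF name, with the responses on these arrays already known, so their own values are given as a description, with no p-value, and nothing is read from the counts of members past a threshold.

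The series compared the mating response of 3 Saccharomyces species on S. cerevisiae cDNA arrays with 2 dyes, 13 arrays in all. The S. mikatae group has 4 arrays of haploid a cells derived from IFO 1815, the S. paradoxus group has 3 arrays of haploid a cells derived from CBS432, and the S. cerevisiae alpha factor group has 3 arrays of BY4741, a haploid a strain. In these 3 groups, RNA of cells grown in YPD at 30 °C and sampled 60 min after 6 µM alpha factor, the pheromone that alpha cells secrete, was set against RNA of cells of the same species grown in YPD without it. In the S. cerevisiae mating group, which has 3 arrays, BY4741 and BY4742 cells were mixed on a filter on YPD at 30 °C for 90 min and set against the same strains incubated apart and pooled just before extraction. BY4742 is a haploid alpha strain. Arrays of a species are biological replicates of samples handled in parallel, per the labels.

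A Ty element is transcribed from one long terminal repeat to the other, and its RNA is both the mRNA for the element's proteins and the template for reverse transcription. The gag frame (TYA in Ty1 and Ty2) encodes the capsid protein of the virus-like particle, and the pol frame (TYB) encodes protease, integrase and reverse transcriptase. Ty3 transcription in S. cerevisiae is known to be induced by mating pheromone, and its integrase places new copies at the start sites of genes transcribed by RNA polymerase III. Ty1 also inserts near such genes, Ty1 transcription depends in part on the pheromone and filamentation factors Ste12 and Tec1, and Ty5 inserts into silent chromatin. Since Ty1 and Ty2 are repeated in the S. cerevisiae genome and related to each other, a probe for one copy can read RNA of others, and copies cannot be told apart here.

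Values are log2 ratios of treated or mated over untreated or unmixed cells of the same array, centred on the array's median, so a ratio says nothing of how much Ty RNA the species hold before treatment. In bulk RNA, a change in the RNA per cell and a change in the share of cells that respond cannot be told apart. The direction was checked with FIG1, a mating gene that ranked first of all tested features in every group, at 4.62 in S. mikatae, 5.02 in S. paradoxus, 4.97 in S. cerevisiae mating and 4.97 in S. cerevisiae alpha factor. FUS1, needed for cell fusion, averaged 2.0 in S. mikatae, 2.07 in S. paradoxus, 1.65 in S. cerevisiae mating and 1.5 in S. cerevisiae alpha factor. The labels give the dye of the treated sample in 2 conflicting ways. The ratios were read as channel 1 over channel 2, and this direction is called likely because FIG1 and FUS1, known pheromone-induced genes, were higher in every group under it. All arrays run the same way, so dye effects cannot be told apart from responses.

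Coverage of the Ty rows differed between groups. In S. mikatae 2 of the 10 members had values (YIL082W-A and YAR009C), in S. paradoxus 3 (YCL075W, YCL076W and YAR009C), in S. cerevisiae mating 6 (the 3 of Ty5, with YAR009C, YAR010C and YCL019W), and in S. cerevisiae alpha factor all 10. A member with a value in a group had one on every array of that group. Over all rows, 73.4% had a value in S. mikatae, 79.2% in S. paradoxus, 62.8% in S. cerevisiae mating and 97.8% in S. cerevisiae alpha factor, with 3616 to 5964 values per array. The rule by which the authors left values out is not given in the sources used here, and mismatch between the S. cerevisiae probes and RNA of the other species was not measured. YAR009C is thus the only member that can be compared across all 4 groups.

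**Figure D1:**
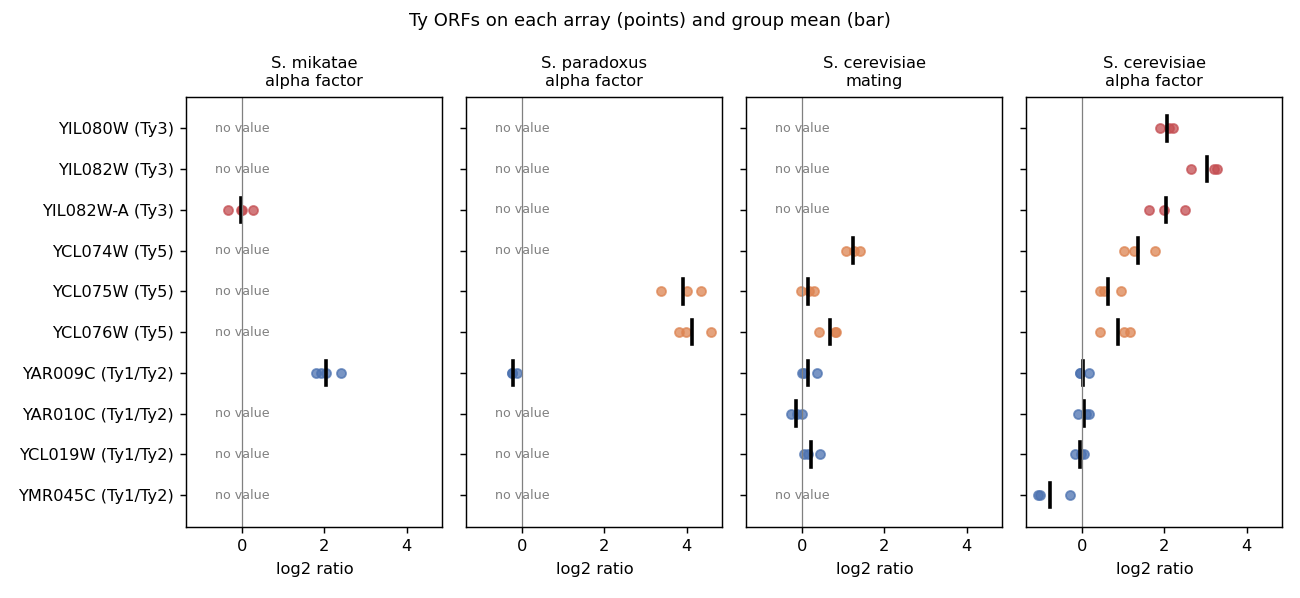
Log2 ratio of each Ty ORF (rows) on each array (points), with the group mean as a black bar, in S. mikatae, S. paradoxus, S. cerevisiae mating and S. cerevisiae alpha factor; "no value" marks rows without a value in that group. The Ty3 ORFs lie at 1.64 or above on the S. cerevisiae alpha factor arrays, the Ty5 rows YCL075W and YCL076W at 3.37 or above in S. paradoxus, and YAR009C at 1.80 or above in S. mikatae.

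All 3 Ty3 ORFs had more RNA after alpha factor in S. cerevisiae, and the single one measured in S. mikatae did not differ from 0 by more than its spread. YIL082W, the gag frame of the element, had log2 ratios of 2.66, 3.27 and 3.21 on the 3 S. cerevisiae alpha factor arrays. Its mean was 3.05 ± 0.336 (SD, n = 3; 8.27-fold), 12th from the top of 5789 tested features. YIL080W, an older ORF name that lies within the pol region of the same element, had 2.12, 1.90 and 2.20, with a mean of 2.07 ± 0.157 (4.21-fold). These 2 names are no longer in the reference gene table and had values in no other group.

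YIL082W-A, the full-length gag-pol frame of Ty3, had −0.01, 0.28, −0.01 and −0.35 on the 4 S. mikatae arrays, against 2.51, 1.64 and 1.99 on the 3 S. cerevisiae alpha factor arrays. The lowest S. cerevisiae array was far above the highest S. mikatae array, so the groups did not overlap. The means were −0.02 ± 0.257 (n = 4) in S. mikatae and 2.05 ± 0.437 (n = 3; 4.13-fold) in S. cerevisiae, a difference of −2.07. Whether S. mikatae IFO 1815 carries a Ty3 copy that this probe could read was not analysed here. No Ty3 row had a value in S. paradoxus or in S. cerevisiae mating. The 3 Ty3 ORFs belong to a single element, so they share RNA and are not independent measurements.

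The Ty5 rows YCL075W and YCL076W stood among the highest features of all in S. paradoxus. YCL076W, by its systematic name next to the Ty5 element near the left end of chromosome III, is not in the reference gene table. It had 3.99, 4.59 and 3.81 in S. paradoxus, against 1.16, 0.44 and 1.02 after alpha factor in S. cerevisiae. YCL075W, a fragment of the Ty5 frame that the reference table marks as a pseudogene, had 4.01, 4.34 and 3.37 in S. paradoxus, against 0.94, 0.54 and 0.45 after alpha factor in S. cerevisiae. For both rows every S. paradoxus array lay above every S. cerevisiae array.

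The S. paradoxus means were 4.13 ± 0.407 (n = 3; 17.5-fold) for YCL076W and 3.91 ± 0.496 (15.0-fold) for YCL075W, ranks 3 and 4 of 4748 tested features. After alpha factor in S. cerevisiae, YCL076W averaged 0.87 ± 0.383 (1.83-fold) and YCL075W 0.64 ± 0.261 (1.56-fold). The S. paradoxus minus S. cerevisiae difference was 3.26 for each row, 9.55-fold for YCL076W and 9.58-fold for YCL075W. Both rows thus pointed up in the 2 species, with a far larger ratio in S. paradoxus. The Ty5 copy of S. cerevisiae is known to be degenerate, while intact, mobile copies are known from S. paradoxus, and how many copies CBS432 carries was not analysed here.

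In S. cerevisiae mating the same Ty5 rows also had smaller ratios than in S. paradoxus. YCL076W had 0.42, 0.82 and 0.80 on the mating arrays, a mean of 0.68 ± 0.225 (1.60-fold) that overlapped with the alpha factor arrays. YCL075W had −0.03, 0.30 and 0.18 on the mating arrays, all below the lowest alpha factor array, with a mean of 0.15 ± 0.165 and a mating minus alpha factor difference of −0.49. Of all features tested in this comparison, 40.3% had no overlap between arrays, so nothing is read from this order.

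YCL074W, the other Ty5 pseudogene fragment, had values in S. cerevisiae only. It had 1.07, 1.41 and 1.27 on the mating arrays, against 1.78, 1.03 and 1.26 on the alpha factor arrays. The means were 1.25 ± 0.17 (n = 3; 2.38-fold) in mating and 1.36 ± 0.381 (n = 3; 2.56-fold) after alpha factor, and the 2 sets of arrays overlapped. YCL074W had the highest mean of the 3 Ty5 rows in both S. cerevisiae groups. Over the 3 rows, the Ty5 mean per array was 0.69 ± 0.184 in mating and 0.96 ± 0.313 after alpha factor.

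Among the Ty1 and Ty2 rows, YAR009C stood apart in S. mikatae. YAR009C, a Ty1 ORF of the pol frame, had 1.92, 2.40, 2.05 and 1.80 in S. mikatae and −0.24, −0.24 and −0.12 in S. paradoxus. It had 0.04, 0.00 and 0.38 in S. cerevisiae mating and −0.03, 0.16 and −0.05 in S. cerevisiae alpha factor. The 4 S. mikatae arrays therefore lay above all 9 others. The mean was 2.04 ± 0.257 in S. mikatae (n = 4; 4.12-fold), 23rd of 4367 tested features. It was −0.20 ± 0.0692 in S. paradoxus, 0.14 ± 0.205 in S. cerevisiae mating and 0.03 ± 0.117 in S. cerevisiae alpha factor (n = 3 each). The S. mikatae mean was higher than that of S. paradoxus by 2.24 and than that of S. cerevisiae alpha factor by 2.01. The S. paradoxus arrays also lay below all S. cerevisiae alpha factor arrays, with a difference of −0.23. Of all features tested in this comparison, 39.1% had no overlap between arrays, so nothing is read from this order.

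The other 3 Ty1 and Ty2 rows had values in S. cerevisiae only, and none had a mean above 0.06 after alpha factor. YAR010C, the Ty1 gag frame at the same locus as YAR009C, had −0.12, −0.27 and −0.01 in mating, against −0.10, 0.16 and 0.11 after alpha factor. On 3 arrays its deposited value was exactly that of another probe. YCL019W, a Ty2 gag-pol frame, had 0.05, 0.14 and 0.45 in mating, against 0.05, −0.18 and −0.01 after alpha factor. For both rows the groups overlapped and the means stayed within 0.21 of 0.

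YMR045C, a Ty1 gag-pol frame, was the only member below 0 on every array that measured it. It had −0.28, −1.07 and −1.01 after alpha factor in S. cerevisiae, a mean of −0.78 ± 0.44 (n = 3; 1.72-fold lower), with 1 array well above the other 2. All 3 of its values lay below the lowest value of YAR009C, YAR010C and YCL019W on the same arrays.

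Counts of members past the threshold are given beside the share of all features past it, with nothing read from them, since the members were chosen with these responses known. The threshold is a Benjamini-Hochberg adjusted p of 0.05 in limma's moderated test across all features. In S. mikatae 1 of the 2 members tested was called (48.7% of all tested features were), in S. paradoxus 2 of 3 (49.3%), and in S. cerevisiae mating 2 of 6 (41.2%). In S. cerevisiae alpha factor 7 of 10 were called (33.6% of all features), 6 of them higher (16.3%) and 1 lower (17.3%). In the comparison of S. mikatae with S. paradoxus 1 of 1 member tested was called (14.5%) and had no overlap between arrays (26.9% of all features). In that of S. mikatae with S. cerevisiae alpha factor 2 of 2 were called (12.5%) and did not overlap (27.1%). In that of S. paradoxus with S. cerevisiae alpha factor 2 of 3 were called (17.1%) and 3 did not overlap (39.1%). In that of S. cerevisiae mating with S. cerevisiae alpha factor 0 of 6 were called in limma (18.5%), 1 of 6 at an unadjusted p under 0.05, and 1 did not overlap (40.3%). The last 3 comparisons share the S. cerevisiae alpha factor arrays.

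**Figure D2:**
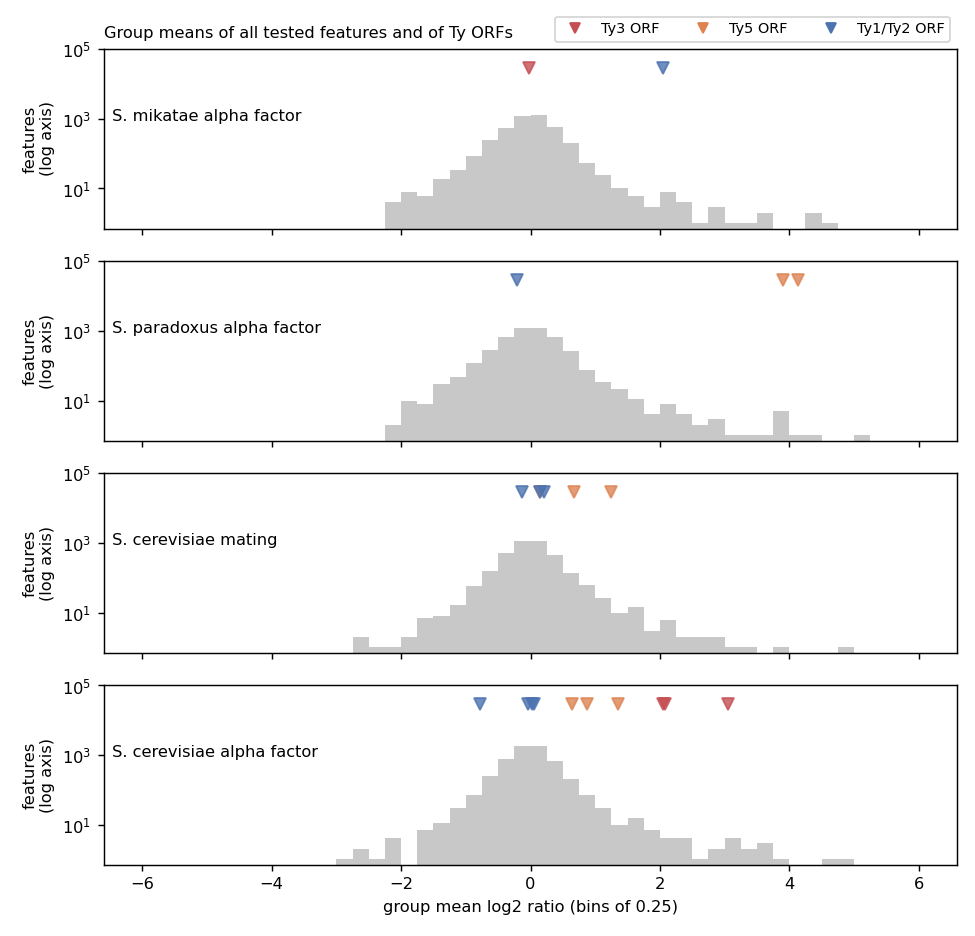
Number of tested features (log axis) by group mean log2 ratio in bins of 0.25, one panel per group, with triangles at the means of the Ty ORFs. Ty3 in S. cerevisiae alpha factor (2.05 to 3.05), Ty5 in S. paradoxus (3.91 and 4.13) and YAR009C in S. mikatae (2.04) lie in the right tails, while the other Ty1/Ty2 means lie at 0.21 or below.

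The nearest ORFs on each side of the Ty3 element also had higher ratios in S. cerevisiae than in the other species. These neighbours were chosen by position in the S. cerevisiae reference gene table (assembly R64) and not by their values. CAB2 (YIL083C), an enzyme of coenzyme A synthesis on the left of Ty3, had −0.06, −0.06, −0.04 and 0.05 in S. mikatae and −0.04, 0.17 and −0.39 in S. paradoxus, against 1.09, 0.67 and 1.09 in S. cerevisiae alpha factor. AIR1 (YIL079C), an RNA-binding subunit of a nuclear RNA surveillance complex on the right, had −0.24, −0.17, −0.08 and −0.13 in S. mikatae and −0.32, 0.03 and −0.55 in S. paradoxus, against 0.97, 0.76 and 0.60 in S. cerevisiae alpha factor. For both genes every S. cerevisiae array lay above every array of the other species. Neither had a value in S. cerevisiae mating.

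CAB2 rose by 0.95 ± 0.242 after alpha factor in S. cerevisiae (n = 3; 1.93-fold; limma adjusted p = 6.18e-05), and AIR1 rose by 0.78 ± 0.181 (1.71-fold; adjusted p = 0.000196). The difference from S. cerevisiae was −0.98 in S. mikatae (adjusted p = 0.000594) and −1.04 in S. paradoxus (adjusted p = 0.000806) for CAB2. For AIR1 it was −0.93 in S. mikatae (adjusted p = 0.000608) and −1.06 in S. paradoxus (adjusted p = 0.000563). These 6 calls held in 19 of 19 alternative settings. AIR1 also fell by 0.28 in S. paradoxus (adjusted p = 0.0373), a call that held in 15 of 19 settings.

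Going outward from CAB2 and AIR1, 10 more ORFs (up to the sixth on each side, a range set after the values were seen) had S. cerevisiae alpha factor means between −0.20 and 0.34, with a median of −0.04. The only one called there was RPN2, a proteasome subunit, at 0.34 (adjusted p = 0.0227), which was also higher in S. mikatae (0.82) and S. paradoxus (0.55). Within this range the element, CAB2 and AIR1 thus had the highest S. cerevisiae alpha factor means, and how far raised ratios extend was not tested.

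**Figure D3:**
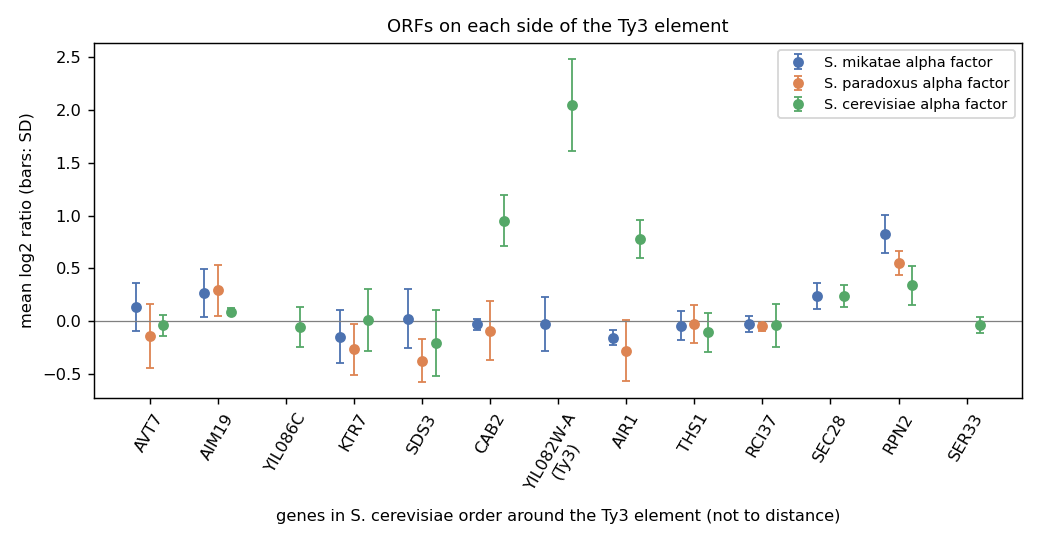
Mean log2 ratio (SD bars) of Ty3 YIL082W-A and of 6 ORFs on each side in S. cerevisiae gene order (not to distance), in S. mikatae, S. paradoxus and S. cerevisiae alpha factor. In S. cerevisiae CAB2 (0.95), YIL082W-A (2.05) and AIR1 (0.78) stand above the other ORFs, which lie between −0.20 and 0.34.

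The neighbours of the other Ty loci were described in the same way. GEX1 (YCL073C), a glutathione exchanger and the nearest ORF to Ty5, averaged 0.14 ± 0.228 in S. cerevisiae mating and 0.01 ± 0.179 in S. cerevisiae alpha factor. It had no value in S. paradoxus, the species of the high Ty5 ratios. On the side of the left chromosome end, no neighbour was found among ORFs placed by the reference gene table. The row YCL076W, next to Ty5 by its systematic name, is a member and is not in that table, so it was not counted as a neighbour. Beside YAR009C and YAR010C, SEN34, a subunit of the tRNA splicing endonuclease, averaged 0.18 ± 0.198 in S. mikatae (n = 4; adjusted p = 0.0403, called in 12 of 19 settings) and −0.17 in S. paradoxus, a difference of 0.35 (adjusted p = 0.0383, called in 11 of 19 settings). BUD14, on the other side, was called in no group or comparison as reported, and in S. cerevisiae mating in 5 of 19 settings.

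At the YCL019W locus KCC4, a septin-associated kinase, fell by 0.33 in S. cerevisiae mating (adjusted p = 0.00516) and by 0.35 in S. cerevisiae alpha factor (adjusted p = 0.00593, called in 18 of 19 settings). LEU2, on its other side, was called in no group or comparison. It is deleted in BY4741 and BY4742, so its S. cerevisiae values do not measure a response of LEU2. At the YMR045C locus IOC4, a subunit of an Isw1 chromatin remodelling complex, fell by 0.45 in S. paradoxus (adjusted p = 0.00289) and by 0.48 in S. cerevisiae alpha factor (adjusted p = 0.00451). NUP116, a nuclear pore protein on the other side, rose by 0.63 ± 0.103 in S. paradoxus (adjusted p = 0.000154) and fell by 0.52 ± 0.0231 in S. cerevisiae alpha factor (adjusted p = 0.00171). The S. mikatae minus S. paradoxus difference of NUP116 was −0.80 (adjusted p = 0.00106) and its S. paradoxus minus S. cerevisiae difference was 1.16 (adjusted p = 0.000188). YMR045C itself had a value in S. cerevisiae alpha factor only, where its mean of −0.78 lay below 0 like those of IOC4 and NUP116. YMR046C, the shorter Ty1 ORF at this locus, averaged −0.14 ± 0.128 there and was not called (limma adjusted p = 0.254).

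By gene order a tRNA gene, transcribed by RNA polymerase III, was next to the element at 4 of the 5 Ty loci, all but Ty5. Of the 5936 other protein-coding genes in the reference table, 470 (7.92%) had a tRNA gene next to them.

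Other Ty1 and Ty2 copies were looked for by layout, as pairs of annotated ORFs that share a 5′ end, with a longer frame of at least 4500 bases and a shorter one of at most 1500 bases, the arrangement of gag-pol and gag. The reference table held 41 such pairs (82 ORFs), of which 20 ORFs had rows on the array, 2 of them members (YCL019W and YMR045C). In S. cerevisiae alpha factor, all 18 others were measured, with means between −0.25 and 0.30, a median of −0.06 and 0 called by limma (1 at an unadjusted p under 0.05). In S. cerevisiae mating 4 were measured, with means between −0.07 and 0.12 and 0 called by limma (0 also at an unadjusted p under 0.05). The mean of −0.78 of YMR045C thus lay below all 18 of these rows on the S. cerevisiae alpha factor arrays. The rows are not independent measurements, and some had nearly equal values. YBR012W-A and YMR046C both averaged −0.140 there, and YJR026W and YJR028W both averaged −0.0884. In S. paradoxus none was measured.

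In S. mikatae 1 of the 18 was measured, YBL005W-A, the shorter frame of its pair. It had 1.26, 1.29, 1.51 and 1.13 in S. mikatae, 0.13, −0.27 and 0.24 in S. cerevisiae mating and −0.15, 0.10 and 0.06 in S. cerevisiae alpha factor. YBL101W-A, named here after its values were seen and absent from the reference table, had 2.22, 2.19, 2.39 and 2.35 in S. mikatae, 0.80, −0.20 and 0.23 in mating and −0.30, 0.12 and −0.04 after alpha factor. Both rows thus had the order seen for YAR009C, with all S. mikatae arrays above all S. cerevisiae arrays. The mean in S. mikatae was 1.30 ± 0.16 for YBL005W-A and 2.29 ± 0.0989 for YBL101W-A (n = 4).

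**Figure D4:**
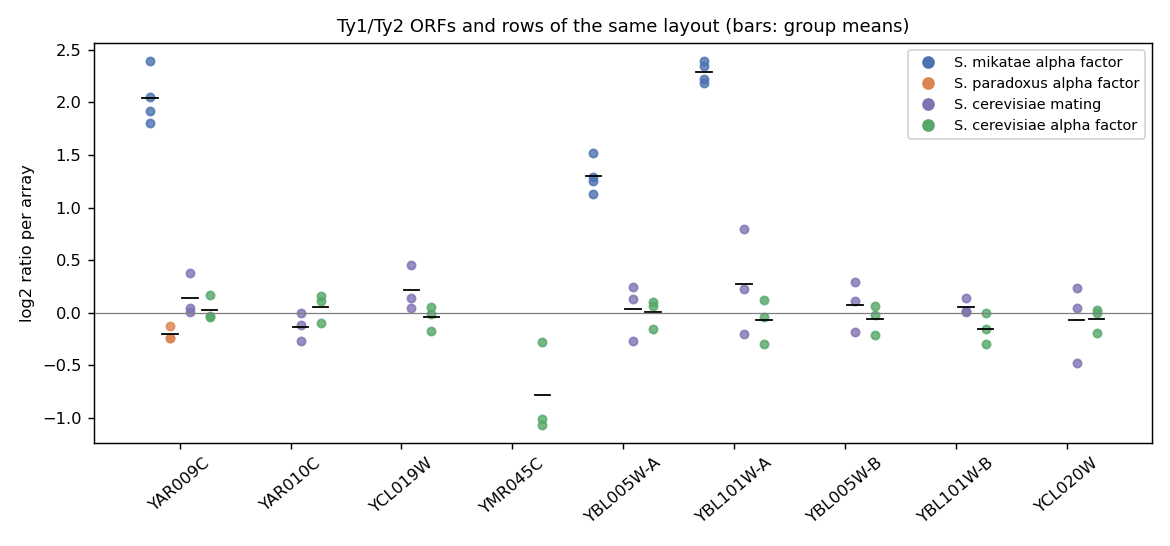
Log2 ratio per array (points) and group mean (bars) of the Ty1/Ty2 members and of 5 further rows, the layout ORFs YBL005W-A, YBL005W-B and YCL020W and the unlisted rows YBL101W-A and YBL101W-B. The S. mikatae points of YAR009C, YBL005W-A and YBL101W-A lie at 1.13 or above, and all S. paradoxus and S. cerevisiae points of the plotted rows at 0.80 or below.

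Genes whose ratios ran most like those of a family were found by the root-mean-square difference in log2 ratio from the family mean, over the arrays on which the family has a value. The family means rest on different members in different groups. For Ty3, over 7 arrays (S. mikatae and S. cerevisiae alpha factor) and 3926 genes measured on all of them, the closest was ECM18 at 0.330, ahead of SCW11, a cell wall glucanase, at 0.578 and PRM6, a pheromone-regulated membrane protein, at 0.670. ECM18 averaged 0.28 in S. mikatae and 2.28 in S. cerevisiae alpha factor, beside a Ty3 mean of −0.02 in S. mikatae and 2.39 in S. cerevisiae alpha factor. In groups without a Ty3 value, ECM18 averaged 2.48 in S. paradoxus and 1.43 in S. cerevisiae mating, and SCW11 −0.03 in S. paradoxus and 0.65 in S. cerevisiae mating.

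For Ty5, over 9 arrays and 2621 genes, the closest was MAK32 at 0.415. MAK32, needed for stability of double-stranded RNA virus-like particles, had 4.03, 4.57 and 4.30 in S. paradoxus, 0.30, 0.32 and 0.31 in S. cerevisiae mating and 0.60, 0.58 and 0.70 in S. cerevisiae alpha factor. YAL069W, an ORF near a chromosome end, followed at 0.783, with a mean of 3.39 ± 0.356 in S. paradoxus, −0.04 in S. cerevisiae mating and 0.09 in S. cerevisiae alpha factor. CIK1, a kinesin-associated protein used in nuclear fusion, came next at 1.03. With YCL075W and YCL076W, MAK32 and YAL069W were among the 10 highest features of S. paradoxus. MAK32 and YAL069W were picked for likeness to the Ty5 mean, so nothing is read from the shared pattern.

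For Ty1/Ty2, over all 13 arrays and 2193 genes, the closest were PDR12, a weak acid exporter, at 0.283, LAM1, a sterol transfer protein, at 0.309, and SKG6 at 0.365. PDR12 averaged 2.32 ± 0.304 in S. mikatae, LAM1 2.23 ± 0.275 and SKG6 2.48 ± 0.387 (n = 4), and in the other groups their means lay between −0.29 and 0.32. In S. mikatae the Ty1/Ty2 mean is YAR009C alone. The next gene in line was at 0.709 for Ty3, 1.20 for Ty5 and 0.400 for Ty1/Ty2.

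**Figure D5:**
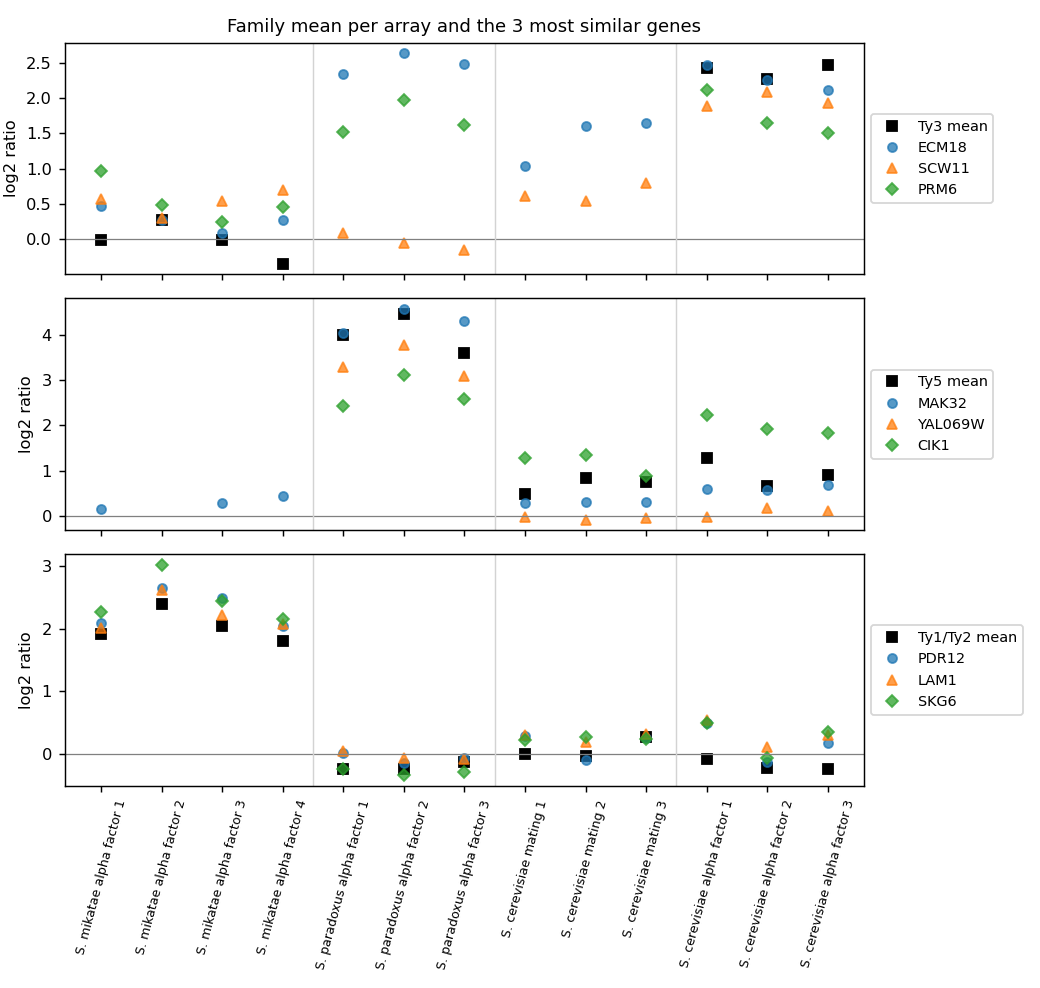
Log2 ratio per array of each family mean (black squares) and of the 3 genes closest to it, from S. mikatae on the left through S. paradoxus and S. cerevisiae mating to S. cerevisiae alpha factor. The Ty5 mean and MAK32 both lie at 3.59 or above on the S. paradoxus arrays and at 1.29 or below on the S. cerevisiae arrays.

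The genes of the pathways and factors that act on Ty elements were grouped into lists. Where a group is left out for a gene named from these lists, the gene had no value or no call there. Of the 11 genes of the kinase cascade and its transcription factors, 6 of 10 tested were called higher and 0 lower in S. mikatae, 4 and 1 of 10 in S. paradoxus, 4 and 0 of 8 in S. cerevisiae mating, and 5 and 0 of 11 in S. cerevisiae alpha factor. Over all features, 23.7% were called higher and 25.0% lower in S. mikatae, 24.3% and 25.0% in S. paradoxus, 20.2% and 21.0% in S. cerevisiae mating, and 16.3% and 17.3% in S. cerevisiae alpha factor. The list's median was 0.44 in S. mikatae, 0.16 in S. paradoxus, 0.26 in S. cerevisiae mating and 0.23 in S. cerevisiae alpha factor, beside medians of all features between −0.00 and 0.00. FUS3, the pheromone MAP kinase, rose by 1.19 in S. mikatae, 1.45 in S. paradoxus, 2.32 in S. cerevisiae mating and 2.06 in S. cerevisiae alpha factor (adjusted p at most 1.14e-08 in limma). TEC1, the filamentation transcription factor that acts at Ty1, rose by 1.33 in S. mikatae, 1.03 in S. cerevisiae mating and 1.68 in S. cerevisiae alpha factor and had no value in S. paradoxus. KSS1, the filamentation MAP kinase, rose by 1.63 in S. mikatae (n = 3) and 0.73 in S. cerevisiae alpha factor, and averaged 0.03 in S. paradoxus (adjusted p = 0.812). DIG2, an inhibitor of Ste12, rose by 0.86 in S. mikatae, 0.51 in S. paradoxus, 0.77 in S. cerevisiae mating and 1.15 in S. cerevisiae alpha factor.

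Of the 16 promoter factors and chromatin remodellers of Ty transcription, 0 were called higher and 6 lower of 13 tested in S. mikatae (median −0.17), and 0 and 3 of 15 in S. paradoxus (median −0.00). In S. cerevisiae mating it was 2 and 4 of 10 (median −0.21), and in S. cerevisiae alpha factor 1 and 6 of 16 (median −0.20). SPT8, a subunit of the SAGA coactivator, fell by 1.28 ± 0.444 in S. mikatae (n = 4; adjusted p = 1.34e-06), by 0.49 in S. paradoxus (n = 2; adjusted p = 0.0261) and by 0.46 in S. cerevisiae alpha factor (adjusted p = 0.0218). MOT3, a zinc finger regulator, fell by 0.46 in S. paradoxus, by 0.84 in S. cerevisiae mating and by 0.70 in S. cerevisiae alpha factor. ROX1, the hypoxic repressor, fell by 0.39 in S. mikatae, by 0.81 in S. cerevisiae mating and by 0.38 in S. cerevisiae alpha factor. In S. paradoxus ROX1 averaged 0.02 and was not called. SNF5, a subunit of the SWI/SNF remodeller, fell by 0.59 in S. mikatae (adjusted p = 0.00525). In S. cerevisiae alpha factor SNF5 averaged −0.39 and was not called.

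Host factors that restrict Ty transposition were called higher in 6 and lower in 3 of 16 tested in S. mikatae (median 0.12), 1 and 3 of 17 in S. paradoxus (0.05), 1 and 0 of 7 in S. cerevisiae mating (0.05) and 2 and 2 of 18 in S. cerevisiae alpha factor (0.03). RTT107, a scaffold of the DNA damage response named for its effect on Ty1 transposition, rose by 1.28 ± 0.369 in S. mikatae (n = 4; adjusted p = 3.17e-07) and averaged 0.09 in S. paradoxus, 0.08 in S. cerevisiae mating and 0.21 in S. cerevisiae alpha factor (adjusted p at least 0.22). RAD52, the recombination mediator, rose by 0.47 in S. mikatae, by 1.20 in S. cerevisiae mating and by 0.76 in S. cerevisiae alpha factor. In S. paradoxus RAD52 averaged 0.25 and was not called. RTT102 fell by 0.35 in S. mikatae, by 0.99 in S. paradoxus and by 0.45 in S. cerevisiae alpha factor. RTT103, a termination factor, rose by 0.28 in S. mikatae and by 0.56 in S. cerevisiae alpha factor.

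Of the 10 mRNA decay and P-body factors, which act on Ty RNA and virus-like particle assembly, 2 were called higher and 2 lower of 10 tested in S. mikatae (median −0.03), 2 and 4 of 10 in S. paradoxus (−0.12), 1 and 3 of 7 in S. cerevisiae mating (−0.21) and 0 and 2 of 10 in S. cerevisiae alpha factor (−0.13). POP2, a deadenylase subunit, fell by 0.49 in S. mikatae, by 0.67 in S. paradoxus, by 0.52 in S. cerevisiae mating and by 0.31 in S. cerevisiae alpha factor. DCP2, the decapping enzyme, fell by 0.35 in S. paradoxus and by 0.56 in S. cerevisiae mating, and its partner DCP1 by 0.30 in S. mikatae and by 0.38 in S. paradoxus. LSM1, a decapping activator, rose by 0.22 in S. mikatae, by 0.44 in S. paradoxus and by 0.42 in S. cerevisiae mating.

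Of the 9 RNA polymerase III targeting factors, 0 were called higher and 4 lower of 7 in S. mikatae (median −0.25), 1 and 3 of 7 in S. paradoxus (−0.20), 0 and 2 of 6 in S. cerevisiae mating (−0.21) and 0 and 2 of 8 in S. cerevisiae alpha factor (−0.25). The gene called higher was BDP1, a TFIIIB subunit, which rose by 1.18 ± 0.494 in S. paradoxus (n = 3; adjusted p = 6.00e-05). TFC6, a TFIIIC subunit, fell by 0.46 in S. mikatae, by 0.28 in S. paradoxus, by 0.35 in S. cerevisiae mating and by 0.59 in S. cerevisiae alpha factor. RPC40, the polymerase subunit that Ty1 integrase binds, fell by 0.64 in S. mikatae, by 0.58 in S. paradoxus and by 0.44 in S. cerevisiae alpha factor. In S. cerevisiae mating RPC40 averaged 0.11 and was not called. TFC8 fell by 0.25 in S. mikatae, by 0.32 in S. paradoxus and by 0.41 in S. cerevisiae mating.

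Of the 5 silent chromatin factors, which bear on Ty5 targeting, 0 of 2 tested were called by limma in S. mikatae (1 at an unadjusted p under 0.05; median −0.17), 1 higher and 1 lower of 5 in S. paradoxus (−0.25), 0 and 2 of 4 in S. cerevisiae mating (−0.15) and 0 and 2 of 5 in S. cerevisiae alpha factor (−0.07). ESC1, a nuclear envelope anchor of silent chromatin, fell by 1.01 ± 0.136 in S. paradoxus (n = 3; adjusted p = 3.06e-06) and by 1.0 ± 0.179 in S. cerevisiae alpha factor (adjusted p = 1.14e-05), and averaged 0.09 in S. cerevisiae mating (adjusted p = 0.396). SIR1 rose by 0.58 in S. paradoxus (n = 2). SIR3 fell by 0.49 in S. cerevisiae mating and by 0.51 in S. cerevisiae alpha factor, and SIR2 by 0.39 in S. cerevisiae mating.

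The alpha-specific genes, markers of alpha cells, had their highest median on the mating arrays, whose samples and references both include alpha cells. All 4 alpha-specific genes were called higher in S. cerevisiae mating (median 1.58), against 1 of 3 in S. mikatae (0.09), 1 of 3 in S. paradoxus (0.15) and 2 of 3 in S. cerevisiae alpha factor (0.39). SAG1, the alpha agglutinin, rose by 2.54 in mating and STE3, the a-factor receptor, by 1.63, while MF(ALPHA)2 rose by 1.53 and MF(ALPHA)1 by 0.55. The a-specific genes were called higher in 4 of 4 in S. mikatae (median 2.33), 7 of 7 in S. paradoxus (1.81), 6 of 6 in S. cerevisiae mating (2.27) and 7 of 7 in S. cerevisiae alpha factor (1.53). ASG7 rose by 4.37 in S. mikatae, 3.77 in S. paradoxus, 2.75 in S. cerevisiae mating and 3.16 in S. cerevisiae alpha factor. BAR1, the alpha factor protease, rose by 2.69 in S. mikatae, 3.15 in S. paradoxus, 2.03 in mating and 2.29 after alpha factor in S. cerevisiae. AGA2, which had no value in S. mikatae, rose by 2.53 in S. paradoxus, 3.14 in mating and 3.16 after alpha factor in S. cerevisiae. MFA1, an a-factor gene, rose by 1.79 in S. paradoxus, 2.51 in mating and 1.53 after alpha factor in S. cerevisiae. The part of cell type in the Ty5 values of the mating arrays was not tested.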

How the data were processed

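RNA ratios of 13 cDNA arrays were analysed. The authors deposited 1 value per ORF and array, read here as the log2 ratio of channel 1 (treated or mated) over channel 2 (untreated or unmixed). Nothing used here states the log base, scanner, background correction, normalization, rule for missing values or genome build. The medians of the arrays, from −0.00931 to 0.00805, were subtracted. The precision is limited by the number of arrays.

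Names and gene order came from the RefSeq gene table of assembly R64, which matched 5665 ORFs, 467 staying under their own name. A single limma fit of all arrays (limma 3.58.1, statmod 1.5.0 and R 4.3.3) estimated the 4 group means, for features with 2 or more values per group compared, and p-values were adjusted over all features by Benjamini-Hochberg. The procedure was tested on simulated data. A test against 0 sets a group mean against the spread between arrays, which the fit pools over groups. Whether the untreated samples of the arrays were separate was not checked.

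The members, gene lists and rules were chosen with earlier results of these data known. The text names all members, FIG1 and FUS1, up to 4 called genes per list by largest group mean, the nearest ORF on each side of each locus, and the 3 genes closest to each family mean. Other retrotransposon ORFs were to be found by their descriptions, which the table used here lacks, so the layout of the frames was used, a rule set after seeing the data. Promoter motifs were not analysed here. Array replicate numbers gave no sign of pairing samples, though the few arrays per group limit this check. Over 18 like-numbered pairs the deviations had r from −0.261 to 0.334, and over the others r from −0.336 to 0.378. Over all pairs of arrays, ratios correlated at 0.369 to 0.899.

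The alternatives were no centring, quantile normalization, only features measured on every array, only the arrays compared, array weights, each array left out in turn, and a replicate block.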

Additional observations from a re-analysis of the deposited data

Results flagged for a closer look

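Several responses differed between species. The contrasts of the Ty members are descriptions, since the members were chosen with these responses known. YIL082W-A of Ty3 differed by −2.07 between S. mikatae and S. cerevisiae alpha factor. The Ty5 rows YCL075W and YCL076W each differed by 3.26 between S. paradoxus and S. cerevisiae alpha factor. YAR009C of Ty1 differed by 2.24 between S. mikatae and S. paradoxus and by 2.01 between S. mikatae and S. cerevisiae alpha factor.

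Among the neighbours of Ty loci, differences between responses passed the test in limma. CAB2 differed by −0.98 between S. mikatae and S. cerevisiae alpha factor (adjusted p = 0.000594) and by −1.04 between S. paradoxus and S. cerevisiae alpha factor (adjusted p = 0.000806). AIR1 differed by −0.93 between S. mikatae and S. cerevisiae alpha factor (adjusted p = 0.000608) and by −1.06 between S. paradoxus and S. cerevisiae alpha factor (adjusted p = 0.000563). SEN34 differed by 0.35 between S. mikatae and S. paradoxus (adjusted p = 0.0383). NUP116 differed by −0.80 between S. mikatae and S. paradoxus (adjusted p = 0.00106) and by 1.16 between S. paradoxus and S. cerevisiae alpha factor (adjusted p = 0.000188). No array of the 4 S. mikatae arrays stood out by Dixon's test for the 2 Ty members measured there, and groups of 3 arrays were not tested. With 4 arrays this test has little power, so nothing is read from its outcome.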

How the results depend on the processing

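No called result changed direction under an alternative run; 29 values of named genes that were not called changed sign. Over all named genes and settings, 4306 values kept their direction and call, 90 lost a call and 57 gained one, 2 and 3 of these being Ty members. The cause of the changes below was not tested. Array weights gave 887 called features for S. mikatae minus S. cerevisiae alpha factor (546 in the fit as reported) and 1246 for S. paradoxus minus S. cerevisiae alpha factor (807 as reported). With each array left out in turn, called features ran from 1126 to 2067 for the S. cerevisiae alpha factor response (1946 as reported), with 1126 without replicate 3 of that group. They ran from 316 to 561 for S. mikatae minus S. cerevisiae alpha factor, with 316 without S. cerevisiae alpha factor replicate 1 and 348 without its replicate 3. They ran from 481 to 896 for S. paradoxus minus S. cerevisiae alpha factor, with 481 and 521 without those 2 arrays and 491 without S. paradoxus replicate 1. They ran from 370 to 711 for mating minus alpha factor in S. cerevisiae (675 as reported), with 370 without alpha factor replicate 3.

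Of the Ty members, the count called in mating minus alpha factor was 1 in place of 0 with only the arrays compared, and 0 to 1 with an array left out; the member was YCL075W, also without S. paradoxus replicate 3. YCL075W lost its call in S. cerevisiae alpha factor without replicate 1 (0.50) and YMR045C without replicate 3 (−0.67). YCL019W was called in mating with array weights (0.26). All other calls of members, in every response and difference and under every alternative run, were as reported. The members were chosen with these responses known, so nothing is read from whether their calls held.

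The labels' replicate numbers gave no sign of pairing between groups, since like-numbered arrays had deviations correlated over a range similar to that of other pairs. With them as a replicate block, 505 features were called for S. mikatae minus S. cerevisiae alpha factor and 700 for S. paradoxus minus S. cerevisiae alpha factor, and no call of a Ty member changed. Missing values limit the comparison of species, since 8 members had no value in S. mikatae and 7 had none in S. paradoxus.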
